A study of Mus musculus with 9 samples.

Results

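The 9 genes described here, Cdx2, Hand1, Gata2, Gata3, Elf5, Tfap2c, Tead4, Ascl2 and Plet1, are regulators or markers of the trophectoderm. They were found by their gene names in a table of 47729 genes, and each name matched 1 gene. The RNA came from mouse embryonic stem cells (ESCs), pluripotent cells of the early embryo, that carry a doxycycline (dox)-inducible transgene for a forced E2A homodimer, in which a pair of E47 proteins, 1 with a FLAG tag, is joined by a linker. All 3 groups carried this transgene, placed by cassette exchange upstream of Hprt and driven by a dox-responsive promoter, and all were cultured in serum with LIF. The groups were cells without dox (0 h) and cells that had received dox at 1 µg/ml for 18 h or 24 h, with 3 biological replicates each. The sources do not say whether the line is 1 clone, and cells given dox without the transgene were not analysed here.

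The trophectoderm is the first epithelium of the mouse embryo: it surrounds the blastocyst and gives rise to the trophoblast of the placenta. Low Hippo signalling in outer cells lets Yap1 work with the DNA-binding factor Tead4, which acts upstream of Cdx2 and Gata3. Cdx2, Elf5 and Tfap2c then maintain trophoblast stem cells, whereas Hand1, Gata2 and Ascl2 act in differentiating trophoblast. ESCs normally express most of these genes at low levels. Hand1 and Ascl2 encode tissue-restricted basic helix-loop-helix (bHLH) proteins that can pair with E proteins such as E47, and E proteins bind the E-box CANNTG. Plet1, a cell-surface protein of trophoblast progenitors, is the exception among the 9 in that it is not a transcription factor.

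Coordinates are those of GRCm38. Cdx2 lies on chr5:147300805-147307270 (minus strand), Hand1 on chr11:57828705-57832818 (minus), Gata2 on chr6:88193891-88207032 (plus) and Ascl2 on chr7:142966829-142969264 (minus). Chromosome 2 holds 3 of the genes, Gata3 at chr2:9857078-9890034 (minus), Elf5 at chr2:103411688-103450989 (plus) and Tfap2c at chr2:172549593-172558622 (plus). Tead4 lies on chr6:128224288-128300823 (minus) and Plet1 on chr9:50494525-50505482 (plus). Gata3 overlaps 4930412O13Rik and Gm13256 on the opposite strand and 9230102O04Rik on its own strand. Tead4 overlaps the pseudogene Gm21893, and Plet1 overlaps its antisense gene Plet1os. These 5 neighbours had means of 0 to 0.0160 FPKM, a read count scaled for exon length and for the reads of the library. How strand was used in counting is not stated, and without it the reads of overlapping genes cannot be told apart.

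RefSeq promoter windows on GRCm38.p6 matched 6 of the 9 genes (Cdx2, Gata2, Gata3, Elf5, Ascl2 and Plet1) and Hand1, Tfap2c and Tead4 had none. The 250 bases before the start of 4 of them are shown because they set 2 genes that rose, Cdx2 and Gata2, beside the Gata2 paralog Gata3 and the bHLH gene Ascl2, which did not pass the test. Each is written 5′ to 3′ on the strand of the gene, ending at the base before the start, with every CANNTG in capitals. The RefSeq start of Gata3 lies 11434 bases inside the annotated gene, and 21 bases of the Cdx2 window lie in an annotated exon.
Cdx2, chr5:147307250-147307499: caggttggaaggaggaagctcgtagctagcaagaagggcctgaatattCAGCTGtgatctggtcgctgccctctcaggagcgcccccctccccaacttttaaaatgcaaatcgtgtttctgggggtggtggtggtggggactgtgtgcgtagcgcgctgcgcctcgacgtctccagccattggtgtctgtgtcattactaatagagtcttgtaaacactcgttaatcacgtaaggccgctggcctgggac
Gata2, chr6:88193641-88193890: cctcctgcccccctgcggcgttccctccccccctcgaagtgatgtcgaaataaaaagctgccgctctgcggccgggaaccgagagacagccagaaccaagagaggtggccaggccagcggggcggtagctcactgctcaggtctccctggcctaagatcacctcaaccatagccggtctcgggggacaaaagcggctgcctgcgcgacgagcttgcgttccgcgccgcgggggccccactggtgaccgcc
Gata3, chr2:9878601-9878850: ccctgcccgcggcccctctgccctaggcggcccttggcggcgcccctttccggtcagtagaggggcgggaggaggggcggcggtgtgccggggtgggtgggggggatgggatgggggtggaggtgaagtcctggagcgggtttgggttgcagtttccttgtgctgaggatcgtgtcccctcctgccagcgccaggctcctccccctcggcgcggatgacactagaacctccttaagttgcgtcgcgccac
Ascl2, chr7:142969265-142969514: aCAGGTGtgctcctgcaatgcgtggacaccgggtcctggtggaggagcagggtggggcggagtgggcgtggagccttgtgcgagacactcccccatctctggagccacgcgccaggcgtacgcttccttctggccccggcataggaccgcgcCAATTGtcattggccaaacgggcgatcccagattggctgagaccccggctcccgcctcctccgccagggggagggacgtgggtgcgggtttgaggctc

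CANNTG reads the same on both strands as a pattern, and within it the search counted CAGCTG, and CAGGTG with its reverse complement CACCTG, the forms that E proteins are known to bind best. The Cdx2 window holds 1 E-box, a CAGCTG whose first base is at position -202 from the start. The Gata2 window shown and its other RefSeq window, which lies in annotated exon sequence and is not printed, hold none, and neither does that of Gata3. Ascl2 has CAGGTG at -249 and CAATTG at -98, and Plet1 has CAGGTG at -247. Elf5 has the most, with 4 in its first window, 1 CAGCTG and 3 CACCTG, and a CATGTG in its second. That first window also lies wholly in annotated exon sequence, with its RefSeq start 410 bases past the annotated start of the gene, and is not printed. Of 32851 windows of this length, 66.2% hold a CANNTG, 13.0% a CAGCTG and 17.2% a CAGGTG or CACCTG. A match is a run of letters, not a measured binding site, and sites farther away were not searched.

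Reads on genes numbered 22028363 to 26471569 per library. The E2A gene itself, Tcf3, which shares sequence with the transgene, had a mean of 39.1 ± 1.80 FPKM (SD, n = 3) at 0 h and 110.1 ± 5.52 at 18 h, and all induced libraries stood above all of those at 0 h. Genes were tested where the average FPKM over the 9 libraries was at least 0.1, which left 17951 genes and 8 of the 9 described here, all except Elf5. A gene was called where limma's p, adjusted over all tested genes by the Benjamini–Hochberg method, did not exceed 0.05 and the log2 fold-change reached 1 in either direction. Fold-changes are on the scale of log2(FPKM+0.1), which understates the change of low genes.

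In limma, Cdx2, Hand1 and Gata2 rose at both times, and no other member passed both thresholds. At 24 h edgeR and DESeq2 also called Tfap2c up. The 3 of 8 that limma called up at 18 h stand beside 1.33% of all tested genes called up, and the 3 of 8 at 24 h beside 2.07%. None of the 8 was called down, against 0.724% of tested genes at 18 h and 0.836% at 24 h. The members were chosen with earlier results of these data known, so these shares are not an independent test of the set. At an unadjusted p below 0.05 in limma, 5 members were higher at 18 h and 4 at 24 h, and 1, Tead4, was lower at each time. The share of all tested genes at that threshold is not given here, so nothing is drawn from these counts. Both edgeR and DESeq2 called 0 members down. In bulk RNA, more cells expressing a gene and more RNA per cell cannot be told apart.

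**Figure D1:**
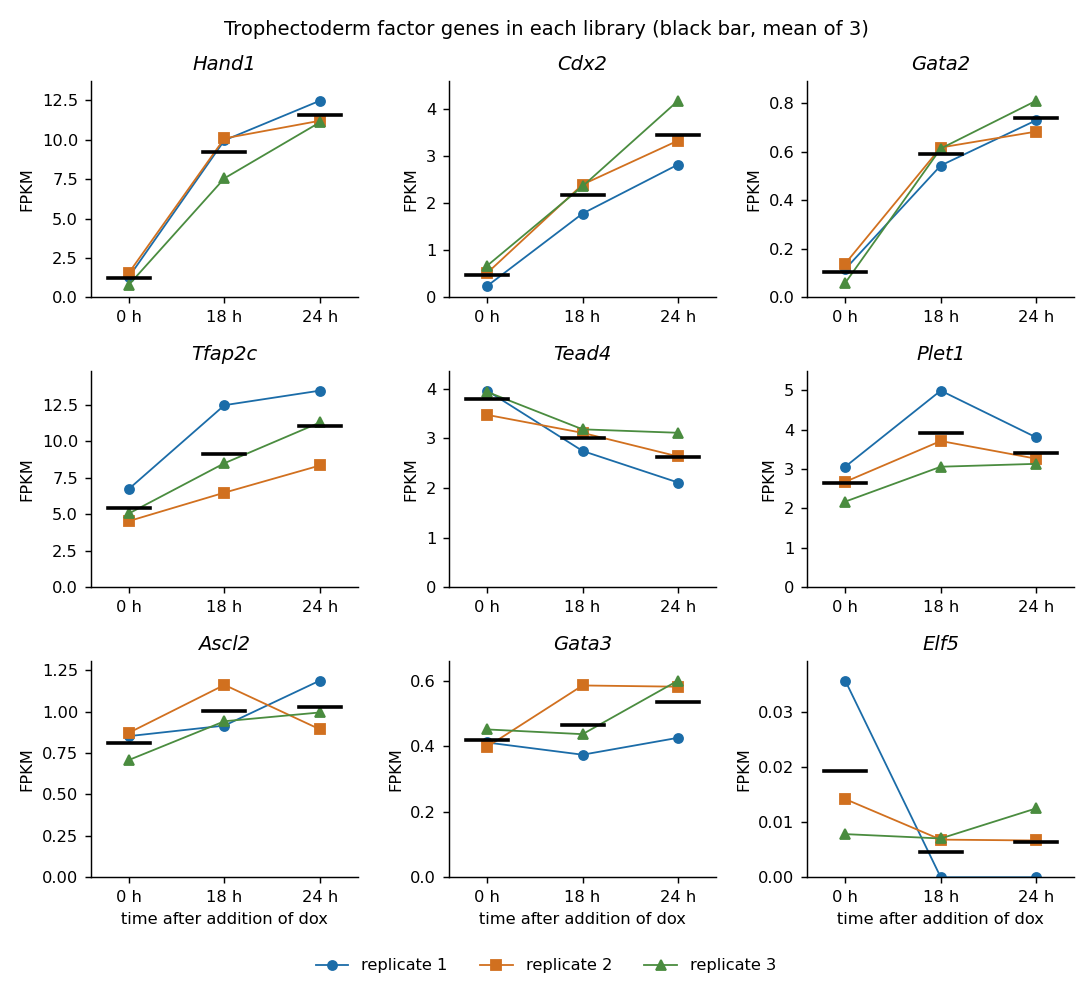
FPKM (y axis, linear and from 0, a different scale in each panel) of the 9 genes by time after dox (x axis: 0, 18 and 24 h). Points are single libraries, lines join libraries with the same replicate number and black bars are means of 3. Hand1, Cdx2 and Gata2 stand above all their 0 h libraries at both later times, whereas Tead4 stands below them and Elf5 never exceeds 0.0357 FPKM.

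Hand1, a bHLH factor needed for trophoblast giant cells and also active in mesoderm and heart, had the largest log2 fold-change of the tested members compared with 0 h, in this fit and in edgeR. Its level was 1.30, 1.56 and 0.806 FPKM in replicates 1, 2 and 3 at 0 h. It was 9.96, 10.1 and 7.56 FPKM at 18 h and 12.5, 11.2 and 11.1 FPKM at 24 h. The lowest induced library thus stood well above the highest library without dox, and these levels rest on 35 to 75 reads per library at 0 h and 365 to 633 after dox. Its log2 fold-change was 2.85 ± 0.21 (SE, limma adjusted p = 0.000195) at 18 h and 3.19 ± 0.21 (adjusted p = 9.32e-05) at 24 h. At 24 h this corresponds to a 9.10-fold higher FPKM+0.1, with a 95% interval on the log2 scale of 2.72 to 3.65.

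Cdx2, the homeobox factor that maintains the trophectoderm and later patterns the posterior body axis and gut, rose at both times. Its level was 0.241, 0.516 and 0.671 FPKM at 0 h. It rose to 1.78, 2.40 and 2.36 FPKM at 18 h and to 2.82, 3.33 and 4.17 FPKM at 24 h. The ranges of the 3 time points did not overlap, although the 0 h libraries themselves differed more than 2-fold, on 13, 28 and 33 reads. Compared with 0 h, the log2 fold-change was 2.05 ± 0.29 (SE, limma adjusted p = 0.00476) at 18 h and 2.68 ± 0.29 (adjusted p = 0.00117) at 24 h. Within replicate numbers, the differences in log2(FPKM+0.1) at 24 h were 3.10, 2.48 and 2.47.

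Gata2, a zinc-finger factor of trophoblast giant cells and of blood progenitors, changed from a much lower level. Without dox it was at 0.117, 0.139 and 0.0596 FPKM. It reached 0.543, 0.617 and 0.613 FPKM at 18 h and 0.729, 0.682 and 0.809 FPKM at 24 h. These levels rest on 15, 18 and 7 reads per library without dox, on 67, 83 and 80 reads after 18 h and on 100, 94 and 119 reads after 24 h. The libraries at 18 h and 24 h lay close together and far from those at 0 h. The log2 fold-change was 1.77 ± 0.21 (SE, limma adjusted p = 0.00234) at 18 h and 2.05 ± 0.21 (adjusted p = 0.000942) at 24 h. The size of this change depends on the pseudocount, since the gene is low: with a pseudocount of 1 it was 0.53 and 0.66, below the fold minimum with the adjusted p still passing (0.00320 and 0.000763), whereas edgeR on the recovered reads gave 2.47 and 2.79.

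**Figure D2:**
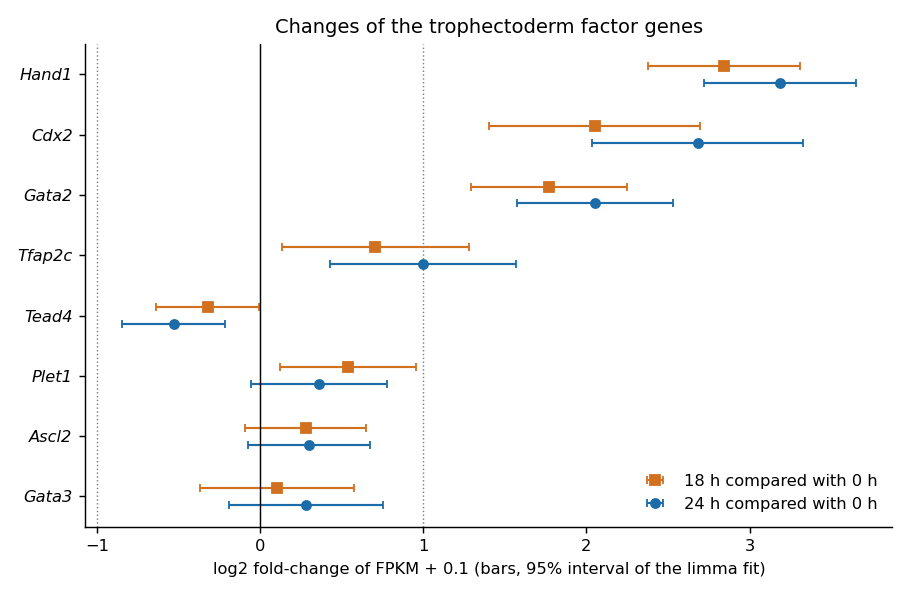
Log2 fold-change of FPKM + 0.1 (x axis) of the 8 tested genes at 18 h (squares) and 24 h (circles) compared with 0 h, with the 95% interval of the limma fit as bars. Dotted lines mark the fold minimum of 1 on the log2 scale. The intervals of Hand1, Cdx2 and Gata2 lie wholly above 1, that of Tfap2c at 24 h spans it, and those of Ascl2 and Gata3 span 0.

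Tfap2c, an AP-2 factor shared by trophoblast stem cells and the germ line, was already the most abundant of the 9 genes at 0 h. Its level was 6.75, 4.54 and 5.06 FPKM at 0 h, 12.5, 6.49 and 8.51 FPKM at 18 h and 13.5, 8.35 and 11.3 FPKM at 24 h. Replicate 1 was the highest and replicate 2 the lowest at each time, so the 18 h libraries overlapped those at 0 h, while those at 24 h did not. The log2 fold-change at 24 h was 1.00 ± 0.25 (SE, limma adjusted p = 0.0365), a ratio of 1.998 that was just short of the fold minimum. The same gene passed both thresholds in edgeR (1.01, adjusted p = 0.0113) and DESeq2 (1.00, adjusted p = 0.00995), and the adjusted p over all alternatives reached 0.111. With the replicate number as a block, limma gave an adjusted p of 0.000649 at 24 h, with the same fold-change. EdgeR with the block called the gene (1.01, adjusted p = 1.57e-08). At 18 h the log2 fold-change was 0.71 ± 0.25 (limma adjusted p = 0.122, and 0.00242 with the block).

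Tead4, the Yap1 partner that acts upstream of Cdx2, was lower in each library after dox than in any without it. Without dox it was at 3.96, 3.47 and 3.94 FPKM. The 18 h libraries had 2.75, 3.11 and 3.18 FPKM, and those at 24 h 2.11, 2.64 and 3.11 FPKM. The nearest libraries of the groups were 3.18 FPKM at 18 h and 3.47 FPKM at 0 h. Its log2 fold-change was -0.32 ± 0.14 (SE, limma adjusted p = 0.189) at 18 h and -0.53 ± 0.14 (adjusted p = 0.0419) at 24 h, a decrease to 0.692 of the 0 h level that was under the fold minimum. On the adjusted p alone the 24 h difference was lost when 1 of 7 of the 9 libraries was left out (all except 18 h replicate 1 and 24 h replicate 3), with values up to 0.121. With the replicate block the adjusted p at 24 h was 0.0163 in limma and 0.000776 in edgeR, and edgeR without the block gave 0.0282. At 18 h the values with the block were 0.0897 in limma and 0.0286 in edgeR. The fold-changes stayed under the fold minimum in these fits.

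Gata3, a paralog of Gata2 that acts in parallel with Cdx2 in the trophectoderm, showed no change that could be told from the replicate spread. Its level was 0.411, 0.398 and 0.451 FPKM at 0 h, 0.374, 0.585 and 0.436 FPKM at 18 h and 0.425, 0.581 and 0.600 FPKM at 24 h. The libraries overlapped between all time points. The log2 fold-change was 0.10 ± 0.21 (SE, limma adjusted p = 0.793) at 18 h and 0.28 ± 0.21 (adjusted p = 0.420) at 24 h, with a 95% interval at 24 h of -0.19 to 0.75. That interval lies below the interval of Gata2, 1.58 to 2.53, though the difference between the genes was not itself tested.

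Ascl2, a bHLH factor of the ectoplacental cone and spongiotrophoblast, stayed near its 0 h level. Its level was 0.852, 0.873 and 0.708 FPKM without dox. It was 0.916, 1.16 and 0.942 FPKM at 18 h, then 1.19, 0.893 and 0.995 FPKM at 24 h. All induced libraries were above all of those at 0 h, but by little. Its log2 fold-change was 0.28 ± 0.17 (SE, limma adjusted p = 0.331) at 18 h and 0.30 ± 0.17 (adjusted p = 0.266) at 24 h, with an interval at 24 h of -0.07 to 0.67.

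Plet1 was at 3.06, 2.67 and 2.17 FPKM at 0 h. It was at 4.99, 3.71 and 3.06 FPKM at 18 h and at 3.80, 3.26 and 3.13 FPKM at 24 h. Its mean was thus highest at 18 h, and at 24 h all libraries stood above those at 0 h. The log2 fold-change was 0.54 ± 0.18 (SE, limma adjusted p = 0.109) at 18 h and 0.36 ± 0.18 (adjusted p = 0.233) at 24 h. With the replicate block the adjusted p was 0.00835 and 0.0277, with the same fold-changes, which stay under the fold minimum.

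Elf5, the Ets factor that maintains trophoblast stem cells, was at or near the limit of detection at every time. It had 5, 2 and 1 reads in the libraries without dox. After 18 h it had 0, 1 and 1 reads, and after 24 h it had 0, 1 and 2. Only 1 library exceeded 3 reads, so no fold is given, and with a mean of 0.0101 FPKM the gene was not tested. Summed over 3 libraries, these were 8, 2 and 3 reads, so no rise after dox was seen.

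Counted by whether the libraries of 2 time points overlap, 4 of the 8 tested members (Cdx2, Hand1, Gata2 and Ascl2) were wholly above 0 h at 18 h, beside 14.4% of tested genes, and Tead4 was below, beside 13.7%. At 24 h, 6 of 8 were wholly above, with Tfap2c and Plet1 added, beside 16.7% of tested genes, and Tead4 was below, beside 14.6%. On the adjusted p alone, the count at 18 h was 3 up and 0 down, beside 4.27% and 3.72% of tested genes. At 24 h it was 4 up, the additional gene being Tfap2c, and 1 down, Tead4, beside 6.52% and 5.11%. The comparisons at 18 h and 24 h share the 0 h libraries.

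Between 18 h and 24 h no member passed the test in limma, edgeR or DESeq2, and none had an unadjusted p below 0.05 in limma. Of all tested genes, 0.0167% were called up and 0.00557% down in this comparison. Cdx2 came closest: its 24 h libraries all exceeded those at 18 h, as they did for Hand1 and Gata2, beside 6.81% of tested genes wholly above and 6.04% wholly below. The log2 difference of Cdx2 was 0.63 (limma adjusted p = 0.900), with a 95% interval of -0.02 to 1.28. With the replicate block, edgeR gave 0.65 with an adjusted p of 0.0269, and the adjusted p over the other alternatives reached 1. For Hand1 the difference was 0.34 (95% interval -0.13 to 0.81) and for Gata2 0.28 (-0.19 to 0.76).

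Because FPKM is scaled for exon length, the genes can also be ranked by level. That length merges the exons of all transcripts of a gene, and which transcripts were expressed was not measured, so the ranks are approximate. At 0 h the order of the means was Tfap2c (5.45 FPKM), Tead4 (3.79), Plet1 (2.64), Hand1 (1.22), Ascl2 (0.811), Cdx2 (0.476), Gata3 (0.420), Gata2 (0.105) and Elf5 (0.0192). The libraries of neighbours in this order overlapped for Hand1 and Ascl2 and for Cdx2 and Gata3. At 24 h Hand1 (11.6 FPKM) and Tfap2c (11.0) led and overlapped each other, and Cdx2 (3.44) and Plet1 (3.40) came next and also overlapped. Tead4 (2.62 FPKM), Ascl2 (1.03), Gata2 (0.740), Gata3 (0.536) and Elf5 (0.00639) followed without overlap between neighbours. Hand1 thus moved from the fourth place to the first, and Gata2 passed Gata3.

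Among 14 other regulators of trophoblast, 7 rose at 24 h, none fell and 7 did not pass, with a median log2 fold-change of 0.94 beside 0.00 over all tested genes. Of all tested genes, 2.07% were called up and 0.836% down at 24 h. This list, like the others, was written with earlier results of these data known. The largest log2 fold-change in it was that of Id2 (1.95 ± 0.17, limma adjusted p = 0.000343), an inhibitor that lacks a DNA-binding domain and binds E proteins, which went from 38.7 to 146 FPKM. Esx1 (1.53, adjusted p = 0.00197), a homeobox gene of the placenta, Fgfr2 (1.49, adjusted p = 0.000230), the receptor for the Fgf4 that trophoblast stem cells need, and Gcm1 (1.44, adjusted p = 0.00300), a factor of syncytiotrophoblast, were already called at 18 h with Id2. Msx2 (1.23), Sox21 (1.19) and Tfap2a (1.14) were called by limma at 24 h and not at 18 h, although the difference between the times was not called for any of them. At 18 h edgeR and DESeq2 each called 6 of the list up, with Tfap2a and Msx2 beside the 4 of limma. Eomes, which marks trophoblast stem cells, was at 1.07 FPKM at 0 h and 0.813 FPKM at 24 h (log2 fold-change -0.36, adjusted p = 0.240). Esrrb was at 17.8 and 18.4 FPKM (0.08, adjusted p = 0.898), and Klf5 at 23.1 and 12.8 FPKM (-0.81, adjusted p = 0.0164, under the fold minimum). With a pseudocount of 1 the count of 7 became 2, at a mean FPKM of at least 1 it became 4 and without 24 h replicate 3 it became 5. Without 0 h replicate 2, Klf5 was called down (-1.02, limma adjusted p = 0.00148). At 24 h edgeR and DESeq2 also called 7 of the list up and 0 down, and 1 gene was lower at an unadjusted p below 0.05 in limma.

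The Hippo pathway and Tead partners, the arm that acts through Tead4, held no called gene of 20 at either time, with a median log2 fold-change at 24 h of 0.12. Over all tested genes, 1.33% were called up and 0.724% down at 18 h, and 2.07% and 0.836% at 24 h. At an unadjusted p below 0.05 in limma 4 were higher and 1 lower at 24 h, and edgeR and DESeq2 called none. Yap1 was at 23.7 FPKM at 0 h and 27.2 FPKM at 24 h (0.21, limma adjusted p = 0.145), and the Yap1 target Ctgf at 106 and 137 FPKM (0.39, adjusted p = 0.163). With the replicate block these adjusted p values were 0.0409 and 0.0237, at the same fold-changes, which stay under the fold minimum. Amot, which restrains Yap1 at cell junctions and was singled out after its values were seen, came nearest, with 4.78 FPKM at 0 h and 8.94 FPKM at 24 h (0.90, adjusted p = 0.0115). It passed both thresholds without 0 h replicate 2 (1.04) and without 24 h replicate 1 (1.01).

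**Figure D3:**
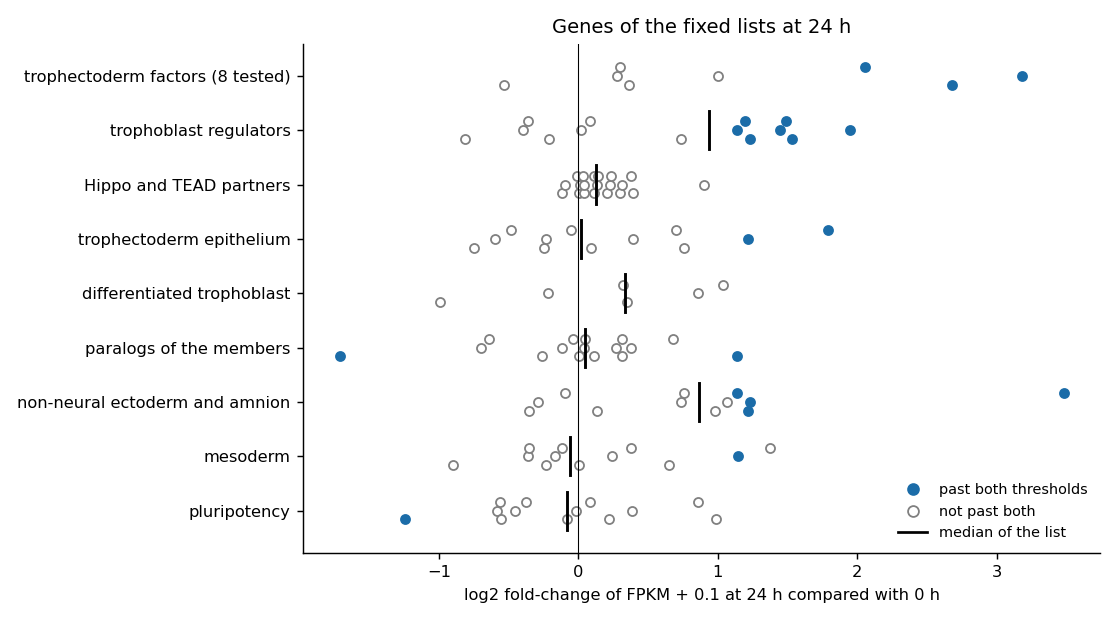
Log2 fold-change of FPKM + 0.1 at 24 h compared with 0 h (x axis) of each tested gene, by list (y axis). Filled points passed the adjusted p and the fold minimum, open points did not, and black ticks are the median of a list. The filled points to the right include 7 trophoblast regulators, while no Hippo or Tead gene is filled.

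Genes of the trophectoderm as an epithelium were tested next. Of 12, the keratin Krt8 (1.21, limma adjusted p = 0.000878) and the cadherin Cdh3 (1.79, adjusted p = 0.000108) rose at 24 h, and the median was 0.02. Over all tested genes, 2.07% were called up and 0.836% down at 24 h, and 1.33% and 0.724% at 18 h. Krt18, the partner of Krt8 in filaments, was at 170 FPKM at 0 h and 289 FPKM at 24 h (0.76, adjusted p = 0.00453, under the fold minimum). Krt19 was at 55.1 and 53.5 FPKM (-0.05, adjusted p = 0.890). Tspan8 was called down at 18 h (-1.41, adjusted p = 0.0162) but not at 24 h (-0.75, adjusted p = 0.105). Its 18 h call rests on 47 reads in all at 0 h and 12 at 18 h, and it was lost without 0 h replicate 1 (limma adjusted p = 0.0610), without 18 h replicate 3 (0.0592) and with a pseudocount of 1 (-0.38). At 24 h limma, edgeR and DESeq2 called 0 of the list down, with 1 lower at an unadjusted p below 0.05.

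Markers of differentiated trophoblast were absent or low. Of 16, 8 had an FPKM of 0 in all libraries (Ctsq, Tpbpa, Prl3b1, Synb, Ctsj, Prl3d1, Tpbpb and Prl2c2), among them the placental lactogens Prl3d1 and Prl3b1 and the spongiotrophoblast marker Tpbpa. Only 6 were tested, and their list summed to between 1.89 and 3.18 FPKM in every library. Over all tested genes, 1.33% were called up and 0.724% down at 18 h. In this list Plac1 (1.39, limma adjusted p = 0.0425) was called up at 18 h and Mmp9 (-1.17, adjusted p = 0.0382) down. Both were also called in edgeR (1.72 and -1.76), in DESeq2 (1.73 and -1.78) and with the replicate block. Both calls were lost with a pseudocount of 1 (0.49 and -0.32), without the filter on low values and with only the time points compared. They were also lost without any of 6 of the 9 libraries (0 h replicate 2, 18 h replicates 2 and 3 and those at 24 h). Without any of the other 3, 1 of the calls was lost. Except with the pseudocount of 1, these losses were on the adjusted p, and the fold-changes still reached the fold minimum. At 24 h limma called 0 of the 6, with 2 higher and 1 lower at an unadjusted p below 0.05, and edgeR and DESeq2 called Mmp9 down and 0 up. With the replicate block Rhox6, a homeobox gene of the placenta, was called up at 24 h in limma (0.300 to 0.760 FPKM, 1.04, adjusted p = 0.0285) and in edgeR (adjusted p = 0.0177).

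Paralogs of the members were tested as well, beside 2.07% of all tested genes called up and 0.836% down at 24 h. Of 16 tested paralogs, Tfap2a rose at 24 h (0.309 to 0.808 FPKM, log2 fold-change 1.14, limma adjusted p = 0.0106; not called without 24 h replicate 3, at 0.996, or with a pseudocount of 1, at 0.46) and Cdx4 fell (2.32 to 0.630 FPKM, -1.71, adjusted p = 0.00499). Cdx4 had also fallen at 18 h (-1.33, adjusted p = 0.0170), while Cdx2 rose, a contrast that was not itself tested. The 18 h call of Cdx4 was lost without 0 h replicate 3 (limma adjusted p = 0.0553), without 18 h replicate 3 (0.0679), with only the time points compared (0.0521) and with a pseudocount of 1 (-0.82), and the 24 h call held under all alternatives run. The other paralogs did not pass both thresholds, in limma, and their list had a median of 0.04. In edgeR 2 paralogs were called up at 24 h, the other being Tfap2b, which was too low for the limma test, and edgeR and DESeq2 also called Tfap2a up at 18 h.

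The lists of other embryonic cell types that use the same factors gave the following values, beside 2.07% of all tested genes called up and 0.836% down at 24 h. In the non-neural ectoderm and amnion list, which shares Tfap2a, Msx2 and Krt8 with the lists above, 4 of 12 rose at 24 h and none fell, with a median of 0.87. By limma 1 was lower at an unadjusted p below 0.05, and edgeR and DESeq2 called 5 up and 0 down. The count up was 5 with the replicate block, which added Msx1 (1.07, adjusted p = 0.0158), 7 in edgeR with the block and 2 with a pseudocount of 1. The gene of that list with the largest change was Bmp7, a secreted ligand, which went from 1.16 to 14.1 FPKM (3.49, limma adjusted p = 5.83e-05). In the mesoderm list 1 of 12 rose by limma, Snai1 (1.15, adjusted p = 0.000605), and the median was -0.06. With a pseudocount of 1 this call was lost, and 0 of the list were called up. Gsc, a homeobox gene of the organizer, was at 0.0110 FPKM at 0 h and 0.203 FPKM at 24 h (1.38, limma adjusted p = 0.0508). It was called with the replicate block (adjusted p = 0.0416) and in edgeR (adjusted p = 0.0282), but not in DESeq2. Its defining gene T was at 1.27 FPKM at 0 h and 0.636 FPKM at 24 h (-0.90, limma adjusted p = 0.217, and 0.00713 with the replicate block), and edgeR with the block called it down. Whether cells of any of these types contributed to the rise of Hand1, Cdx2 or Gata2 was not tested.

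The 13 pluripotency genes, which identify the cells as ESCs, summed to 772 to 1033 FPKM per library at 0 h, 692 to 932 FPKM at 18 h and 644 to 900 FPKM at 24 h. The lowest of them was Tbx3, with means of 1.02, 0.571 and 0.682 FPKM at these times. Of all tested genes, 2.07% were called up and 0.836% down at 24 h. Fgf4 was the 1 gene of the pluripotency list that limma called at 24 h, downwards (16.8 to 6.98 FPKM, -1.25, adjusted p = 0.0170). This call was lost without 0 h replicate 1 (-1.02, limma adjusted p = 0.0527), 24 h replicate 2 (-1.15, 0.0662) or 24 h replicate 3 (-1.13, 0.0680), and Dppa3 was called up with quantile normalization (1.06) and without 24 h replicate 2 (1.19). Sox2 was at 88.9 and 87.8 FPKM (-0.02, adjusted p = 0.929). On the adjusted p alone, Pou5f1, which represses trophectoderm genes in ESCs, was lower (371 to 248 FPKM, -0.58, adjusted p = 0.0220) and Nanog higher (40.6 to 73.4 FPKM, 0.86, adjusted p = 0.00735). Whether these values had a part in the rise of the 3 members was not tested.

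Likeness of profile was measured for the 3 called members as the mean absolute difference over the 9 libraries of log2(FPKM+0.1), each gene centred on its own mean, among genes whose mean reached 1 FPKM. For Cdx2 the nearest of 11892 genes were Igfbp5 (0.130), Slc5a5 (0.206) and Hprt (0.229). Hprt, the gene beside which the transgene was placed, went from 11.4 FPKM at 0 h to 48.2 FPKM at 24 h. For Hand1 the nearest were Id1 (0.250), Btbd17 (0.294) and Snai2 (0.318), and Id1, like Id2 an inhibitor of E proteins, went from 35.8 to 213 FPKM. For Gata2, among 11893 genes, they were Fam19a4 (0.102), Id2 (0.104) and Ngfr (0.107). These are descriptions over 9 libraries in 3 groups, in which all genes that rose after dox resemble each other.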

How the data were processed

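RNA-seq of 9 libraries was analysed. The authors made strand-specific poly(A) libraries, sequenced them on a HiSeq4000, trimmed with cutadapt 1.9, aligned with STAR to GRCm38 and tested with edgeR 3.16.5. The Ensembl release and the handling of strand and multiple alignments in counting are not given in the sources used here. The authors deposited FPKM for 47729 genes and, for 19210 that passed their filter, a signal of CPM scaled to an effective library size, whose steps gave whole reads for 100% of values (tolerance 0.01). Reads were divided by FPKM and a library term, and scaled by a constant set on the annotated lengths of genes with many reads. This returned the merged exon length of each member in GENCODE M21. The reads of Elf5, which was not among the filtered genes, came from the steps of its FPKM. Columns of the authors' own group means, fold-changes and p-values were not used. The label text on treatment gives 24 h and 48 h of dox; the titles, the treatment entries and the paper give 18 h and 24 h, used here. Depth was 22028363 to 26471569 reads on genes per library, and at 3 reads or fewer a gene was taken as at the floor, which covers counting error only.

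The main test was limma 3.58.1 (lmFit, eBayes with trend; R 4.3.3) on log2(FPKM+0.1) over all 9 libraries without a block, for 17951 genes whose mean reached 0.1 FPKM, with Benjamini–Hochberg adjustment. Alternatives were other pseudocounts (1 and 0.01) and filters, quantile normalization, median centring, only the time points compared, the replicate block, each library left out, no fold minimum, edgeR 4.0.16 (with and without the block) and DESeq2 1.42.0. The fits were tested on simulated data, and no result of that is given or used here. Same-numbered libraries deviated together (r of 0.211 to 0.548 over 9 pairs and 11893 genes, against -0.399 to 0.110 for 18 pairs with different numbers), so the numbers were taken to pair the libraries. The main fit has no block, so its p-values do not use this pairing. Fits with the replicate block are given as alternatives for some genes. No pair of replicates agreed within sampling noise (chi-square over degrees of freedom of 5.79 or more). With 3 libraries against 3, no exact permutation test was run, since a test of both directions could not reach 0.05. All members are named. Of the lists, called genes and otherwise at most 4 per list in order of mean FPKM are named. Amot, Cdx1, Dppa3, Eomes, Gata4, Gsc, Msx1, Nanog, Sox7, Tbx3, Tfap2b, Wnt3a, Yap1 and Zscan4c fall outside this rule and were named after their values were seen. The members and lists were chosen with earlier results of these data known. Promoter windows are from RefSeq and were searched for the motifs named.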

Additional observations from a re-analysis of the deposited data

How the results depend on the processing

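Cdx2 and Hand1 were called at 18 h and 24 h compared with 0 h under all alternatives run, and Gata2 under all except a pseudocount of 1 and a mean FPKM of at least 1, where it was not tested. Of 495 values of members under alternatives, 479 kept direction and side of the threshold. Genes called at 18 h numbered 369, and 120 with a pseudocount of 1, 210 at a mean FPKM of at least 1, 583 in edgeR, 816 in edgeR with the replicate block and 1433 without a fold minimum. At 24 h they numbered 521, and 151, 265, 780, 1018 and 2088 in that order. Between 18 h and 24 h they numbered 4, and 0 with a pseudocount of 1, at a mean FPKM of at least 1 and in edgeR, 1 with a pseudocount of 0.01, 2 in DESeq2 and 9 in edgeR with the block. The cause was not tested. Leaving out 1 library gave 224 to 428 genes at 18 h (fewest without 18 h replicate 3), 333 to 544 at 24 h (fewest without 24 h replicate 3) and 0 to 8 between them. Members called stayed at 3 at 18 h, ranged from 3 to 4 at 24 h and were 0 between the times. Without a fold minimum, 5 members were called at 24 h.

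Tfap2c at 24 h passed both thresholds with a pseudocount of 0.01, without 0 h replicate 1 (1.16) and without 24 h replicate 2 (1.18). Its adjusted p missed 0.05 without 5 of the 9 libraries (up to 0.111). Direction reversed for Gata3 at 18 h (-0.043 without 18 h replicate 2, range to 0.22), for Ascl2 between 18 h and 24 h (-0.025 with quantile normalization; -0.035 without 18 h replicate 1, -0.017 without 18 h replicate 3 and -0.079 without 24 h replicate 1, range to 0.12) and for Plet1 between them (0.0073 without 18 h replicate 1, range from -0.34). None of these was called. The replicate block gave 506, 630 and 4 genes, called the same numbers of members (3, 3 and 0) and changed no call of a member beyond those given above on the adjusted p alone. Depth limits Elf5, and the 7 reads of Gata2 in 1 library at 0 h.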

Other observations

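The posterior axis list, which covers the other embryonic role of Cdx genes, had 9 of 12 genes tested. Of all tested genes, limma called 2.07% up and 0.836% down at 24 h. In limma and DESeq2 Cdx4 was the gene of this list called at 24 h, downwards. edgeR called Wnt3a up as well (1.26, adjusted p = 0.0293), and edgeR with the replicate block also called T down (-1.02, adjusted p = 0.000710). Cdx1 was at 0.158 FPKM at 0 h and 0.225 FPKM at 24 h (log2 fold-change 0.31, limma adjusted p = 0.569). Markers of primitive endoderm, the other extraembryonic lineage of the blastocyst, summed to 23.4 to 24.4 FPKM per library at 0 h and 29.7 to 31.8 FPKM at 24 h. None of the 8 tested was called by limma, edgeR or DESeq2, with 2 higher at an unadjusted p below 0.05 in limma at 24 h. At 18 h edgeR with the replicate block called Sox7 down (-1.70, adjusted p = 0.0305), a gene too low for the limma test. Gata6 was at 0.315 and 0.333 FPKM (0.05, adjusted p = 0.926) and Gata4 at 0.175 and 0.152 FPKM (-0.12, adjusted p = 0.869), so among the GATA genes described here Gata2 was the one that passed the test. Genes of totipotent-like ESCs, such as Zscan4c, summed to at most 0.775 FPKM in any library, and none of the 7 found passed the filter of the main test. In edgeR, DESeq2 and limma without the filter, none of this list was called at 24 h. Fibroblast markers, in cells grown on gelatin by the study's methods, summed to 7.01 to 14.7 FPKM at 0 h and 6.12 to 10.7 FPKM at 24 h, and none of the 5 tested was called by any of the 3 tools.

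The windows before the Elf5 starts have 2 and 8 CG dinucleotides and that of Plet1 has 3, against a median of 6 over 32851 RefSeq windows and 13 to 24 in those of Cdx2, Gata2, Gata3 and Ascl2. DNA methylation was not measured in these libraries.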
